A study of Mus musculus with 24 samples.

Results

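Heparan sulfate is a sulfated sugar chain carried on cell-surface proteins, and 35 protein-coding genes for the enzymes that build, edit and cut it, and for its syndecan and glypican carriers, were followed here among the 45792 genes of the count table. Members were selected on gene symbol: Ext1 and Ext2, Extl1 to Extl3, the Ndst genes, Glce, Hs2st1, the Hs6st and Hs3st genes, Sulf1 and Sulf2, Hpse and Hpse2, and the Sdc and Gpc genes. No measured value enters that choice gene by gene, but the family as a whole was chosen by earlier results of these data, in which its log2 fold changes in these same comparisons were known, so the tests below describe it and are no independent support. RNA-seq had been done on primary cortical neurons of E16.5 mice after 12 days of culture. The cells were wild type (WT) or carried the H2BE-KO/mCherry-KI allele, in which the histone variant H2BE is knocked out and an mCherry reporter knocked in (KO below). Each genotype had 4 untreated control libraries, 4 treated with BDNF, the neurotrophin that activates the TrkB receptor, for 30 min, and 4 treated for 24 h. The series asks how H2BE acts on activity-dependent gene expression. The labels used here name no strain, BDNF dose or number of embryos per culture.

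Heparan sulfate chains are started and extended by the exostosins, then modified in order: N-deacetylase/N-sulfotransferases (NDSTs) replace acetyl by sulfate, the epimerase Glce converts glucuronic to iduronic acid, and 2-O-, 6-O- and 3-O-sulfotransferases add further sulfates. The resulting pattern governs the binding of growth factors such as FGFs, of guidance cues such as Slits and of synaptic partners such as protein tyrosine phosphatases. At the cell surface the Sulf endosulfatases remove 6-O-sulfates, heparanase (Hpse) cuts the chain, and syndecans (transmembrane) and glypicans (lipid-anchored) present it. In neurons these carriers take part in axon guidance and synapse formation.

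The 24 libraries held 19780486 to 62135270 gene counts. Neuron markers summed to 8752 to 10326 CPM (read counts scaled to each library's TMM-corrected total) in every library, whereas the 10 endothelial markers summed to at most 5.03 CPM, with 1 to 3 of them at 0 counts within a group, and the microglial markers to at most 16.9 CPM. The astrocyte markers (12 genes) summed to 673 to 751 CPM in WT controls and 267 to 429 CPM in KO controls, and the interneuron markers (10 genes) to 1010 to 2076 and 2224 to 3030 CPM; no gene of either list was at 0 in a whole group. In these bulk samples fewer cells of a type and less RNA per cell cannot be told apart. Of the targeted gene, Hist2h2be, counts were higher in KO: 4.75, 4.88, 4.70 and 5.83 CPM in WT controls and 49.96, 60.6, 57.9 and 54.5 CPM in KO controls. That count does not check the deletion, since the replaced part of the gene is not described in the labels. The library labelled KO 24 h replicate 4 stood apart, with 21.2 CPM of Hist2h2be against 49.98 to 60.9 in the other KO 24 h libraries, and it held both Xist (145 CPM) and the Y-linked Ddx3y (66.3 CPM), while the control of the same replicate number held Ddx3y at 0.193 CPM. The library labelled KO 30 min replicate 4 carried late BDNF genes (Serpinb2 7.59 CPM against at most 0.746 in its group), and replicate 3 of that group had the fewest counts and 15323 detected genes. Mitochondrial genes took 10.9 to 21.7% of counts in the 3 libraries of KO replicate 4 and 4.18 to 9.34% elsewhere.

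Untreated WT neurons expressed nearly the whole pathway. Of the 35 members, 32 passed the filter on low counts, 28 averaged over 1 CPM in every group, and Hpse2, Hs3st3a1 and Hs3st6 did not pass, with means of at most 0.133 CPM. Levels are compared between genes as CPM per kb of exon. Sdc3, the neuronal syndecan, was far highest at 139.7 ± 3.22 CPM per kb (SD, n = 4). The 3-O-sulfotransferase Hs3st4 followed at 30.6 ± 4.07 and Extl3, which adds the first chain-specific sugar, at 28.1 ± 0.802 CPM per kb; their libraries overlapped. Below Extl3, with no overlap, Gpc1, a glypican of adult neurons, was at 21.8 ± 1.72, the endosulfatase Sulf2 at 20.7 ± 2.14, Ndst1 at 19.7 ± 1.07 and Hs3st1 at 19.1 ± 1.71 CPM per kb, and these neighbours also overlapped. At the low end heparanase, Hpse, stood at 0.115 ± 0.0373 CPM per kb. Within their enzyme classes single members dominated: Ndst1 made up 78.5 ± 4.48% of the NDST level (SD, n = 4) and Sulf2 98.3 ± 0.475% of the Sulf level, whereas the 6-O-sulfotransferases were more even, with Hs6st1 at 41.5 ± 3.43%, Hs6st2 at 29.8 ± 1.10% and Hs6st3 at 28.6 ± 3.16%.

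**Figure D1:**
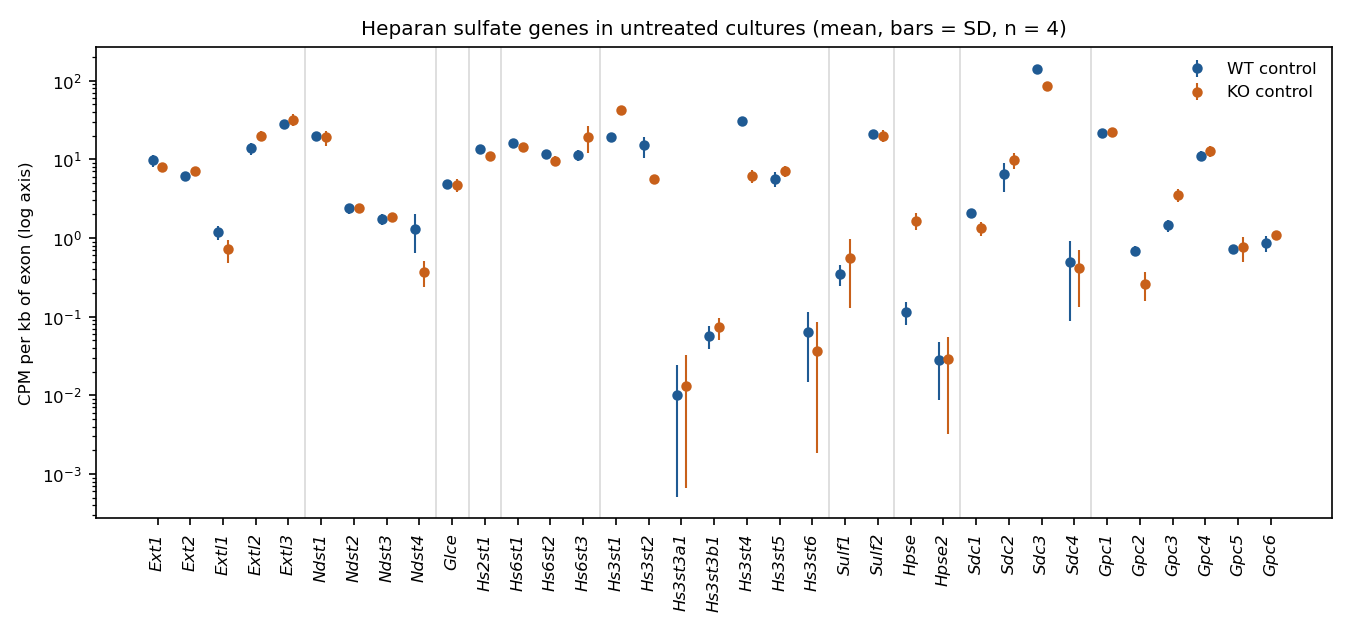
Level of each of the 35 members in untreated WT (blue) and KO (orange) neurons, in CPM per kb of exon on a log axis; points are means, bars SD, n = 4 libraries, and grey lines separate enzyme and carrier classes (a lower bar that would reach 0 is cut short). Sdc3 is highest in both genotypes, and Hpse, Hs3st4 and Hs3st1 are among the members whose points lie apart between genotypes.

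Untreated KO neurons differed from WT in heparanase, in the make-up of the 3-O-sulfotransferases and in 4 carriers. Of the 32 members tested, 4 were higher (Hpse, Hs3st1, Gpc3, Extl2) and 7 lower (Hs3st4, Hs3st2, Ndst4, Gpc2, Sdc3, Sdc1, Hs2st1), by edgeR's quasi-likelihood test at an adjusted p under 0.05 (Benjamini-Hochberg, over the 16777 genes tested). Of all genes the same test called 21.4% (11.3% higher, 10.1% lower), and of the members 34.4%. The members' median log2 fold change was 0.04, beside 0.03 over all genes. After 30 min of BDNF 17 members differed (7 higher, 10 lower; of all genes 28.4%, as 14.6% and 13.8%), and after 24 h 6 did (4 higher, 2 lower; of all genes 13.3%, as 7.09% and 6.16%). Hpse, Hs3st1, Gpc3, Hs3st4 and Sdc3 passed in all 3 conditions, in the same direction each time. Markers of other cells moved with genotype: of 12 astrocyte markers 0 were higher and 3 lower in KO controls (9 lower at 30 min and 1 at 24 h), and of 10 interneuron markers 5 were higher (5 at 30 min and 2 at 24 h). Of 12 neuron markers 1 was higher and 4 lower in KO controls. Of 7 microglial markers tested 1 was higher in KO controls, 2 at 30 min and 1 at 24 h, and 0 were lower. Their median log2 fold change in controls was 1.87. The 1 called there was Csf1r (3.08 ± 0.77 SE, adjusted p = 0.00556), at 0.131 CPM in WT and 1.10 in KO on average. Summed microglial markers overlapped, at 9.01 to 11.5 CPM in WT controls and 9.65 to 13.9 in KO controls. The part of all these markers in the differences that follow was not tested.

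**Figure D2:**
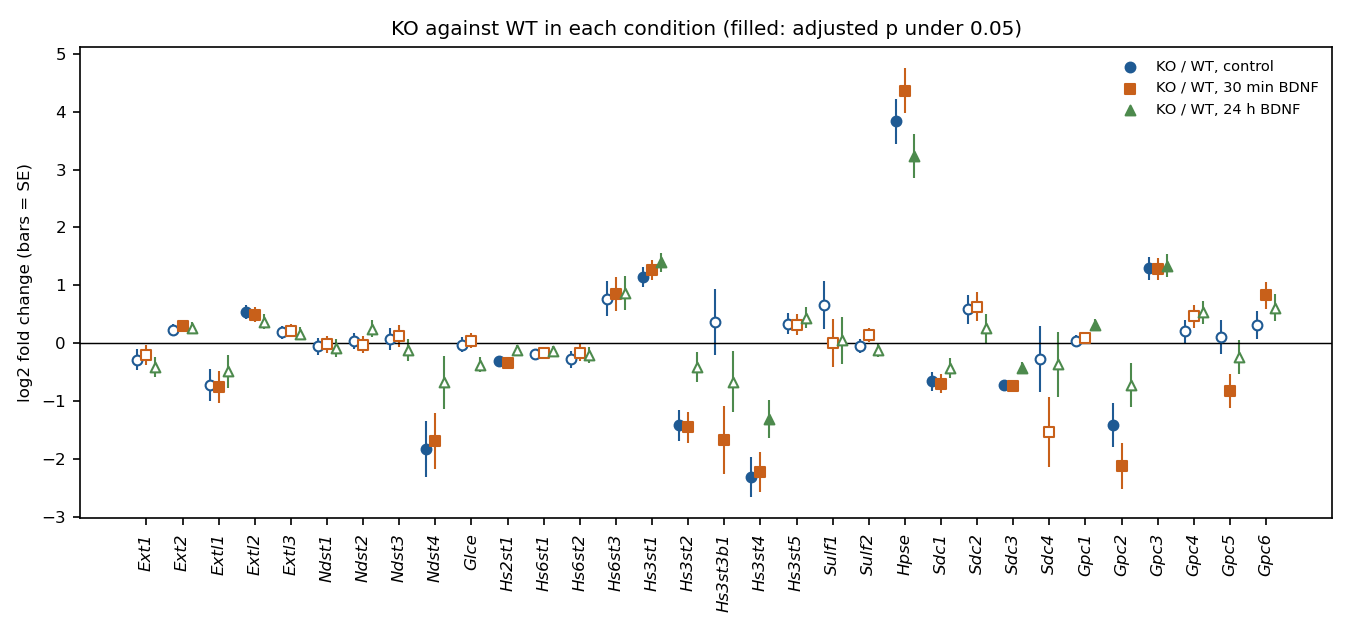
Log2 fold change of KO against WT for the 32 tested members in control (circles), 30 min BDNF (squares) and 24 h BDNF (triangles); bars are SE, and filled symbols have an adjusted p under 0.05. Hpse lies highest at 3.24 to 4.36, and Hs3st4 is lower in KO in all 3 conditions, at -2.31 to -1.31.

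Hpse, the endoglucuronidase that cuts heparan sulfate chains (chromosome 5, 100679484 to 100719716, minus strand, mm10), stayed at or under 0.747 CPM in every WT library and was at least 2.19 CPM in every KO library. WT controls held 0.481, 0.528, 0.232 and 0.376 CPM and KO controls 7.64, 4.49, 6.32 and 4.91 CPM. The ranges did not overlap, and the log2 fold change was 3.83 ± 0.39 (SE, adjusted p = 8.96e-07). At 30 min the values were 0.288, 0.504, 0.543 and 0.252 CPM in WT and 9.29, 5.38, 11.1 and 7.09 CPM in KO, for 4.36 ± 0.39 (SE, adjusted p = 1.36e-07). At 24 h WT held 0.212, 0.306, 0.476 and 0.747 and KO 5.03, 3.90, 5.63 and 2.19 CPM, for 3.24 ± 0.38 (SE, adjusted p = 1.7e-05). The lowest of those KO values belongs to the library labelled KO 24 h replicate 4, and all 12 KO libraries still lay above all 12 WT libraries.

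Among the 3-O-sulfotransferases, which add the rarest of the modifications, the leading member differed between untreated WT and KO neurons. Hs3st1, known for the antithrombin-binding type of site (chromosome 5, 39613935 to 39755475, minus strand), measured 40.1, 47.9, 39.5 and 42.7 CPM in WT controls and 90.7, 104, 96.7 and 85.5 CPM in KO controls, a log2 fold change of 1.15 ± 0.17 (SE, adjusted p = 4.83e-05). The control groups did not overlap. Hs3st4, one of the brain-enriched members (chromosome 7, 123982869 to 124398989, plus strand), went the other way, from 107, 110, 88 and 84.6 CPM in WT to 14.3, 22.2, 20.6 and 21.4 CPM in KO, -2.31 ± 0.34 (SE, adjusted p = 5.01e-05). Hs3st2, the other brain-enriched member (chromosome 7, 121391859 to 121501770, plus strand), was also lower, at 48.2, 57.4, 51.4 and 26.1 CPM in WT and 16, 18.4, 19 and 15.2 CPM in KO, -1.41 ± 0.27 (SE, adjusted p = 0.000535). WT replicate 4 had the lowest WT value for Hs3st2, above every KO control. The interneuron markers of that library summed to 2076 CPM, against 1010 to 1413 in the other WT controls and 2224 to 3030 in KO controls. Whether these markers bear on Hs3st2 was not tested. As a share of the summed per-kb level of the class, Hs3st1 made up 24.7, 26.5, 25.6 and 32.7% in WT controls and 70.4, 69.2, 67.3 and 69.2% in KO controls. Hs3st4 had 43.5 ± 2.81% in WT and 10.1 ± 1.77% in KO controls (SD, n = 4) and Hs3st2 20.96 ± 4.39% and 9.18 ± 0.342%, as shares with no test. The summed level itself was 70.4 ± 9.30 CPM per kb in WT and 61.3 ± 5.66 in KO, with overlapping libraries. In WT at 24 h of BDNF, Hs3st1 had 33.9 ± 9.11% and Hs3st4 37.8 ± 7.63% (SD, n = 4). Hs3st1 was then the larger in replicates 3 and 4, at 35.9 and 44.2% against 32.8 and 33.5% for Hs3st4.

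The same genotype differences were measured under BDNF. Hs3st1 was higher in KO by 1.27 ± 0.17 (SE, adjusted p = 1.24e-05) at 30 min and by 1.40 ± 0.17 (SE, adjusted p = 2.88e-05) at 24 h. Hs3st4 was lower, at -2.23 ± 0.34 (SE, adjusted p = 5.01e-05) and -1.31 ± 0.33 (SE, adjusted p = 0.0107), and the smaller value at 24 h includes the library labelled KO 24 h replicate 4, at 50.9 CPM beside 12.3 to 14.1 CPM in the other 3. Without that library the 24 h value was -2.11 ± 0.21 (SE, adjusted p = 6.73e-07). Hs3st2 was lower at 30 min, at -1.45 ± 0.27 (SE, adjusted p = 0.000323), and at 24 h the difference of -0.40 ± 0.26 (SE, adjusted p = 0.354) did not pass, nor did it without that library, at -0.65 ± 0.27 (SE, adjusted p = 0.096). By edgeR with all libraries and no block, Hs3st5 was called in no comparison. Hs3st3b1, at 0.178 to 0.965 CPM on average, was then lower in KO at 30 min only among the genotype comparisons: 0.531, 0.504, 0.395 and 0.967 CPM in WT and 0.373, 0.0677, 0 and 0.271 CPM in KO, -1.67 ± 0.58 (SE, adjusted p = 0.0344). That call for Hs3st3b1 was lost without the 3 KO replicate 4 libraries and KO 30 min replicate 3 (-1.45 ± 0.58 SE, adjusted p = 0.0723).

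**Figure D3:**
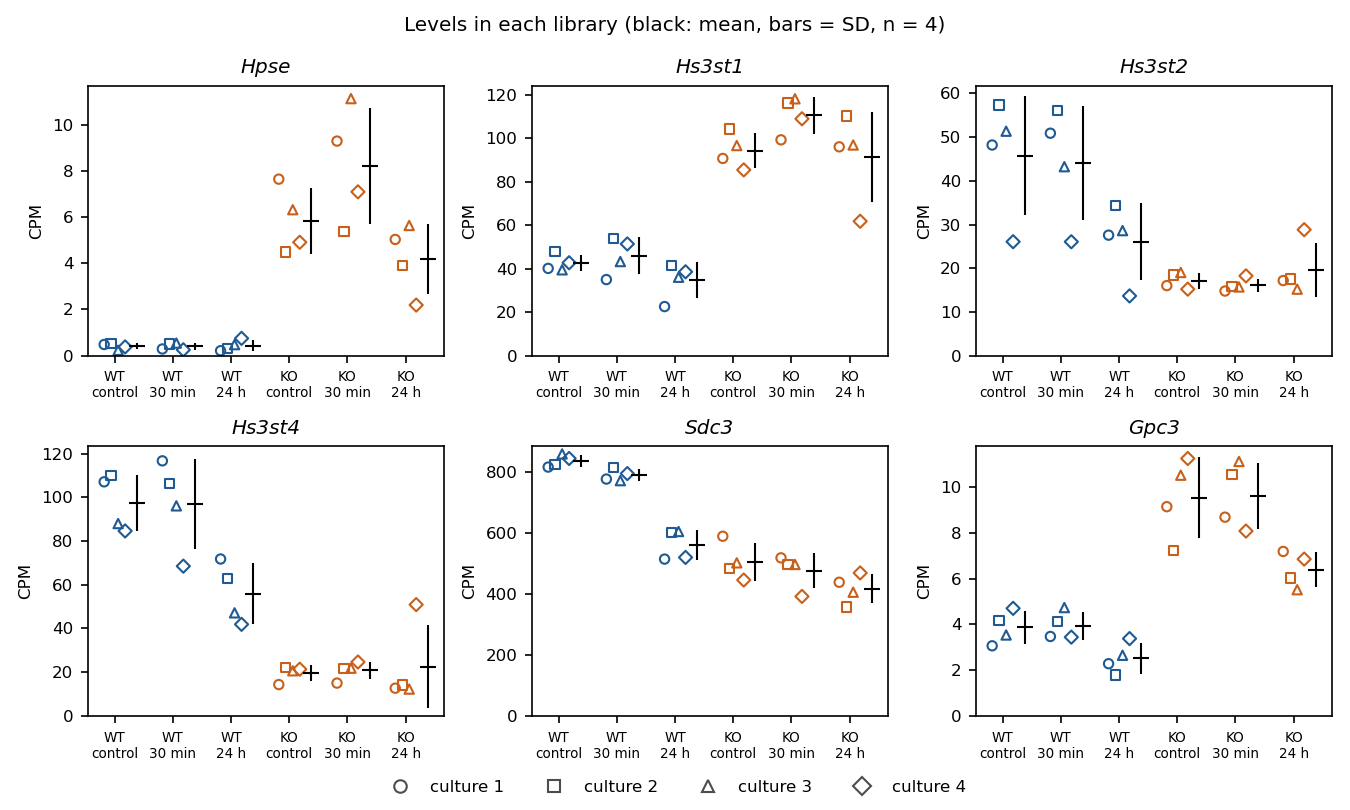
CPM in every library for Hpse, Hs3st1, Hs3st2, Hs3st4, Sdc3 and Gpc3 (each axis starts at 0); symbols mark the replicate number, called culture, blue is WT and orange KO, and black marks give the mean with SD, n = 4. In untreated neurons the WT and KO points do not overlap for any of the 6 genes, which were picked from the members called. Of all genes tested, 26.5% had no overlap between the control groups. The library labelled KO 24 h replicate 4 lies toward WT for Hs3st2 (28.8 CPM) and Hs3st4 (50.9 CPM).

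The stretches upstream of the RefSeq start sites of these 4 genes are shown because Hpse and Hs3st1 were higher and Hs3st2 and Hs3st4 lower in the same KO libraries, and because Hs3st2 holds a full cAMP-response element (CRE), the motif bound by CREB, a factor activated downstream of BDNF. Each runs 5′ to 3′ from 250 to 11 bases before the start (RefSeq, GRCm38.p6), at chr5:100719727-100719966 (minus), chr5:39644642-39644881 (minus), chr7:121392046-121392285 (plus) and chr7:123982578-123982817 (plus), and capitals mark the CRE.
Hpse: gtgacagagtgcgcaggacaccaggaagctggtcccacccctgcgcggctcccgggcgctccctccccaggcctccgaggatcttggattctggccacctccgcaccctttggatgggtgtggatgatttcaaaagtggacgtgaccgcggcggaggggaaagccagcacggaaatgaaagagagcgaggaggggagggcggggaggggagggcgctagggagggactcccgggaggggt
Hs3st1: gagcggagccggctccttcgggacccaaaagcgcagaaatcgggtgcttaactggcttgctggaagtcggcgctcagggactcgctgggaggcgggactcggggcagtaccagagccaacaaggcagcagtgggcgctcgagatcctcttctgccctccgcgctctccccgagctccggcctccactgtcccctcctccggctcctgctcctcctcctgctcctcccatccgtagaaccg
Hs3st2: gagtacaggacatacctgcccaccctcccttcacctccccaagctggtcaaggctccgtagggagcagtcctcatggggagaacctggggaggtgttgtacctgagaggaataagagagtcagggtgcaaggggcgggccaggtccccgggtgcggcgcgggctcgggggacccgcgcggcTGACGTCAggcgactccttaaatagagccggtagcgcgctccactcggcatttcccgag
Hs3st4: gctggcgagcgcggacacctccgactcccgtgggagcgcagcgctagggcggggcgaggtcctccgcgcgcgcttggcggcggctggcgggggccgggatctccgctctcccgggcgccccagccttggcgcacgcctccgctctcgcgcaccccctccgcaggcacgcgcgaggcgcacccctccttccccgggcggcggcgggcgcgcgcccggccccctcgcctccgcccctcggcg
All 4 are rich in G and C, at 66.7% for Hpse and Hs3st1, 65% for Hs3st2 and 82.5% for Hs3st4, which holds 42 CpG dinucleotides against 16 to 19 in the others. The Hs3st2 element, TGACGTCA, begins 69 bases before this RefSeq start. The stretches shown for Hs3st1 and Hs3st2, with this element, lie inside the gene spans given above and not upstream of them. Windows of 300 bases were found for 26 of the 35 members (30 windows) and searched on both strands. TGACGTCA occurred in 1.79% of all 32851 promoter windows and in those of Hs3st2 and Hs3st3a1. The shorter core TGACG, which overlaps it, occurred in 20.8% of all windows and in those of 9 members. The AP-1 motif TGANTCA (7.81% of all windows) and the EGR motif GCGTGGGCG (0.612%) occurred in none of the member windows. A match describes letters only.

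The carriers differed by member. Sdc3 measured 816, 826, 859.6 and 845 CPM in WT controls and 589.5, 483, 502 and 446 CPM in KO controls, with no overlap, -0.73 ± 0.10 (SE, adjusted p = 2.28e-05). It was also lower at 30 min, -0.73 ± 0.10 (SE, adjusted p = 1.51e-05), and at 24 h, -0.42 ± 0.10 (SE, adjusted p = 0.00665). Sdc1, a syndecan better known from epithelia, was lower at 3.87, 4.57, 5.71 and 5.97 CPM in KO against 7.22, 8.84, 7.89 and 7.62 in WT controls, -0.66 ± 0.17 (SE, adjusted p = 0.00731), and -0.70 ± 0.17 (SE, adjusted p = 0.00368) at 30 min. Gpc3, a glypican that binds Hedgehog and Wnt proteins, was higher in KO: 3.07, 4.18, 3.54 and 4.71 CPM in WT controls, 9.15, 7.23, 10.5 and 11.3 CPM in KO controls, 1.29 ± 0.19 (SE, adjusted p = 5.62e-05), and 1.28 ± 0.19 at 30 min and 1.34 ± 0.20 at 24 h (SE; adjusted p = 4.02e-05 and 0.000176). Gpc2, a glypican of developing axons, was low and lower still in KO controls, at 3.37, 2.70, 3.25 and 2.45 CPM in WT and 0.590, 1.25, 0.985 and 1.64 CPM in KO, -1.41 ± 0.38 (SE, adjusted p = 0.0107), and -2.12 ± 0.40 (SE, adjusted p = 0.000382) at 30 min. Of the exon bases of Gpc2, 55.6% are shared on the same strand with Gm43720, which had 0 counts in every library, so its counts are uncertain.

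With all libraries and no block, single-condition differences made up the rest of the carriers. At 30 min Gpc5 was lower in KO (2.31, 2.79, 1.24 and 1.54 CPM, WT 5.05, 2.52, 3.78 and 2.90 CPM, -0.82 ± 0.29 SE, adjusted p = 0.0393) and Gpc6 higher (7.13, 9.17, 4.64 and 13.7 CPM, WT 5.13, 4.25, 4.81 and 5.29 CPM, 0.83 ± 0.24 SE, adjusted p = 0.0105). Without the library labelled KO 30 min replicate 4, which holds the highest Gpc6 value, Gpc6 no longer passed (0.52 ± 0.22 SE, adjusted p = 0.0784), and Gpc5 did not pass without that library either (-0.73 ± 0.32 SE, adjusted p = 0.0963). At 24 h Gpc1 was higher in KO, at 98.4, 99.5, 110.2 and 79.2 CPM against 68.7, 74.1, 79.4 and 89.4 CPM, 0.31 ± 0.10 (SE, adjusted p = 0.0425); these ranges overlapped. By edgeR with all libraries and no block, Sdc2 and Gpc4 passed in no genotype comparison (0.58 ± 0.25 and 0.20 ± 0.20, SE, in controls), nor did Sdc4, at 0.523 to 1.47 CPM on average. With the replicate number as a block, edgeR called Sdc2 in controls and at 30 min (0.61 and 0.64, adjusted p = 0.0155 and 0.00861). It then called Gpc4 at 30 min and 24 h (0.51 and 0.55, adjusted p = 0.0414 and 0.0452). Without KO 24 h replicate 4 and with no block, it called Gpc4 and Gpc6 higher at 24 h (0.63 and 0.75, adjusted p = 0.0355 and 0.0293). DESeq2 called Sdc2 at 30 min (0.62 ± 0.26 SE, adjusted p = 0.0482).

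Among the chain-building and modifying enzymes, Extl2, an exostosin-like transferase thought to restrain chain growth, was higher in KO controls (59.8, 63.6, 72.8 and 80.2 CPM, WT 51.7, 48, 35.8 and 54.5 CPM, 0.54 ± 0.13 SE, adjusted p = 0.0039) and at 30 min (0.49 ± 0.13 SE, adjusted p = 0.00594). Ext2, the partner of Ext1 in the polymerase, was higher at 30 min (50.1, 48.4, 48.3 and 57.9 CPM, WT 43, 46, 43.7 and 33.8 CPM, 0.30 ± 0.10 SE, adjusted p = 0.0314), and Extl1 was lower then (1.94, 2.72, 6.08 and 2.35 CPM, WT 5.75, 6.09, 4.86 and 5.0 CPM, -0.75 ± 0.28 SE, adjusted p = 0.0442), with KO replicate 3 inside the WT range. Ndst4, whose enzyme has weak deacetylase activity, varied widely: 20.4, 22.8, 5.34 and 13 CPM in WT controls and 3.82, 5.42, 2.38 and 5.87 CPM in KO controls, -1.82 ± 0.48 (SE, adjusted p = 0.00932), and -1.69 ± 0.48 (SE, adjusted p = 0.011) at 30 min. WT replicate 3, at 5.34 CPM, fell inside the KO range. Hs2st1, the only 2-O-sulfotransferase, was lower by a small margin in KO controls (89.3, 95.7, 97.8 and 78.1 CPM, WT 104, 111, 107 and 123 CPM, -0.30 ± 0.09 SE, adjusted p = 0.0131) and at 30 min (-0.34 ± 0.09 SE, adjusted p = 0.00421). Hs6st3 was higher at 30 min, at 38.3, 39.95, 33.4 and 13.4 CPM against 15.1, 20.7, 14.7 and 18.9 CPM, 0.85 ± 0.30 (SE, adjusted p = 0.0338), with KO replicate 4 below every WT library. Without the KO replicate 4 library of the group compared, edgeR called Hs6st3 higher in each condition. The values were then 0.97 ± 0.29 in controls, 1.09 ± 0.26 at 30 min and 1.065 ± 0.29 at 24 h (SE, adjusted p = 0.022, 0.0044 and 0.0122). Ext1, Extl3, Glce, Ndst1, Ndst2, Hs3st5, Sdc4 and Sulf1 were called in none of the 9 comparisons by edgeR with all libraries and no block. DESeq2 called 3 of them once each: Ndst2 at 24 h in WT (-0.40 ± 0.15 SE, adjusted p = 0.0348), Sdc4 in KO against WT at 30 min (-1.52 ± 0.58 SE, adjusted p = 0.0293) and Glce in KO against WT at 24 h (-0.38 ± 0.14 SE, adjusted p = 0.0336). Other edgeR settings also called some in KO against WT. Without KO 24 h replicate 4, Ext1 was lower at 24 h (-0.58 ± 0.175 SE, adjusted p = 0.0221). Without KO 30 min replicate 4, Extl3 was higher at 30 min (0.30 ± 0.11 SE, adjusted p = 0.0483). With the replicate number as a block, Glce was lower at 24 h (-0.37 ± 0.12 SE, adjusted p = 0.0394).

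The count of members at 24 h moved with 1 library. Without the library labelled KO 24 h replicate 4, 12 members differed between genotypes at 24 h rather than 6 (18.4% of all genes called), and without all 3 KO replicate 4 libraries and KO 30 min replicate 3, 17 did (31.2% of all genes called). The counts without those 4 libraries were 14 in controls and 15 at 30 min (30.6% and 27.4% of all genes). Leaving out single libraries cost other calls. Hs2st1 in controls was lost without WT control replicate 4 (adjusted p = 0.0583). At 30 min Ext2 was lost without WT 30 min replicate 1 or 4 or KO 30 min replicate 1, 2 or 4 (adjusted p 0.0522 to 0.18), Extl1 without WT 30 min replicate 1, 2, 3 or 4 or KO 30 min replicate 1, 2 or 4 (adjusted p 0.0507 to 0.123), and Gpc5 without WT 30 min replicate 1 or 3 or KO 30 min replicate 3 or 4 (adjusted p 0.0738 to 0.165). Hs3st3b1 was lost without WT 30 min replicate 1 or 4 or KO 30 min replicate 2 or 3 (adjusted p 0.0534 to 0.114) and Hs6st3 without WT 30 min replicate 1, 3 or 4 or KO 30 min replicate 1, 2 or 3 (adjusted p 0.0612 to 0.113). At 24 h Gpc1 was lost without WT 24 h replicate 1, 2 or 3 or KO 24 h replicate 1, 2 or 3 (adjusted p 0.0875 to 0.188).

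At 24 h of BDNF, WT neurons held more transcript of an N-deacetylase/N-sulfotransferase, a 6-O-sulfotransferase and an endosulfatase, and less of the most abundant syndecan and of 3 glypicans. In WT 5 members rose (Ndst3, Hs3st3b1, Sdc2, Hs6st2, Sulf2) and 7 fell (Sdc3, Gpc1, Gpc2, Gpc3, Extl1, Hs3st2, Hs6st1), where of all genes 18.7% were called (9.55% higher, 9.13% lower) and of the members 37.5%; their median log2 fold change was 0.03, beside -0.01 over all genes. In KO 3 members rose (Ndst3, Hs6st2, Gpc4) and 0 fell, where of all genes 5.61% were called (2.91% higher, 2.7% lower). Markers moved with BDNF too. Of 12 neuron markers 3 rose and 3 fell in WT and 3 rose in KO. Of 12 astrocyte markers 1, Glul, fell in both genotypes (-0.86 and -0.59). In WT alone Mbp rose among 8 oligodendrocyte markers tested (1.32), Npy among 10 interneuron markers (1.28), and Prom1 fell among 10 progenitor markers (-1.30). Oligodendrocyte marker sums were 48.0 to 59.0 CPM in WT controls and 69.8 to 97.5 CPM at 24 h, and 29.7 to 51.0 and 46.2 to 68.8 CPM in KO. Whether these markers bear on the members' changes was not tested. At an unadjusted p under 0.05 there were 16 members in WT (50%, beside 30.4% of all genes) and 11 in KO (34.4%, beside 18.7%). Ndst3 and Hs6st2 passed in both genotypes. Leaving out single libraries lowered the WT count to 6 (without control replicate 1, control replicate 2 or 24 h replicate 3) or 7 (without control replicate 3 or 24 h replicate 2), and the KO count to 1 without KO control replicate 4. All-gene calls fell too. In WT they were 2311 to 2839 with any 1 library left out, beside 3133 with all. In KO they were 541 without KO control replicate 4, beside 942 with all.

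With the shared culture code as a block, 17 members were called in WT (31.6% of all genes) and 11 in KO (16.9%). The block added Hs2st1, Hs3st1, Hs3st4, Ndst2 and Gpc4 in WT. In KO it added Sdc3 (-0.27), Gpc1 (-0.26), Gpc3 (-0.56), Hs6st1 (-0.23), Sulf2 (0.29), Sdc2 (0.49), Gpc6 (0.76) and Ndst4 (1.21), all as log2 fold changes. Each of the first 6 has the sign of its call in WT. Over the 32 members the log2 responses of WT and KO, which share no library, had Pearson's r = 0.67 and Spearman's rho = 0.69, and 24 had the same sign. Over all 16777 genes r was 0.62 and rho 0.59, and 12372 had the same sign. Without the 4 libraries named above, and with no block, 17 members were called in WT (32% of all genes) and 6 in KO (9.43%), and with the block 23 (45.9%) and 16 (25.5%). These describe genes that share libraries and depth, and carry no test.

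**Figure D4:**
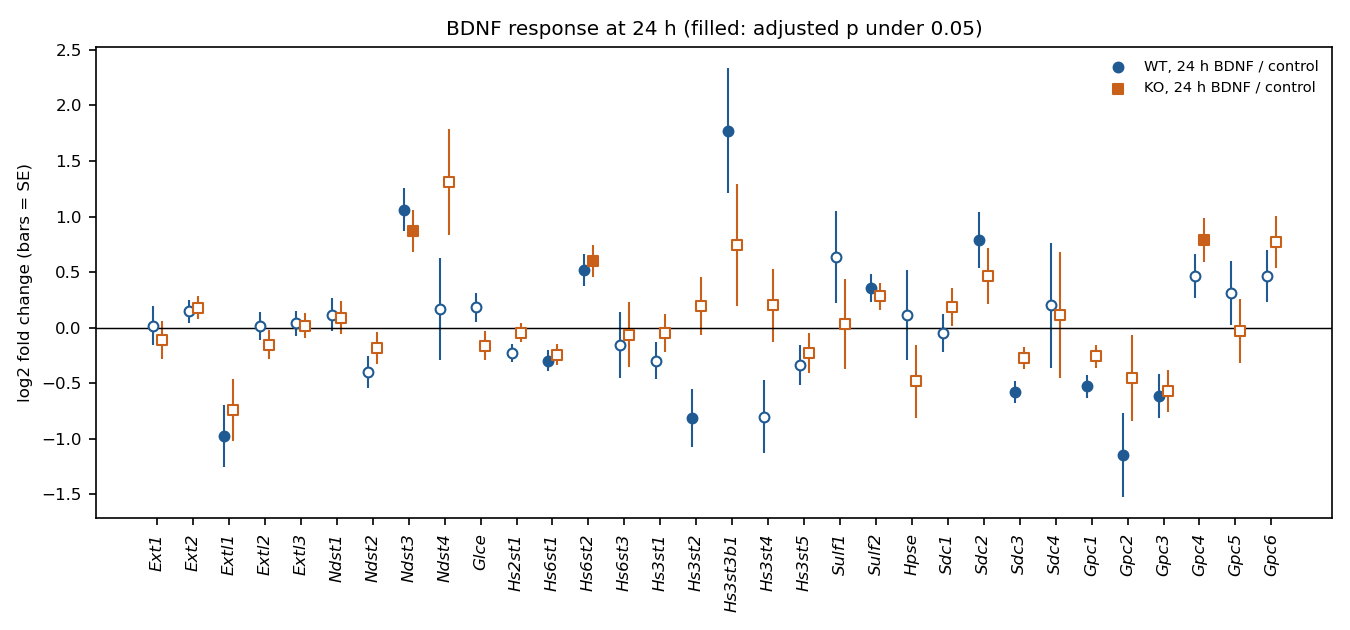
Log2 fold change at 24 h of BDNF against control for the 32 tested members in WT (blue circles) and KO (orange squares); bars are SE, and filled symbols have an adjusted p under 0.05. Ndst3 and Hs6st2 are filled in both genotypes, and Hs3st2 lies at -0.81 in WT and 0.20 in KO.

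Ndst3, which favours N-deacetylation over sulfation (chromosome 3, 123526166 to 123690853, minus strand), rose in WT from 18.2, 19.4, 13.5 and 17.2 CPM to 37.7, 39.3, 34.3 and 31.6 CPM, 1.06 ± 0.19 (SE, adjusted p = 0.000362). In KO it rose from 17.3, 17.7, 18.4 and 18.5 to 32.2, 33.1, 31.5 and 34.7 CPM, 0.87 ± 0.19 (SE, adjusted p = 0.00777). Within the NDST class its share of the per-kb level was 6.89 ± 0.967% in WT controls and 12.8 ± 0.929% at 24 h (SD, n = 4), and 7.94 ± 1.78% and 12.6 ± 1.18% in KO. Ndst4 was higher at 24 h than in control in each of the 4 KO cultures, by 1.17, 0.67, 1.38 and 1.74 on the log2 scale, and passed with the culture block, 1.21 ± 0.21 (SE, adjusted p = 0.000566), but not without it, 1.31 ± 0.48 (SE, adjusted p = 0.118). The largest of the 4 values comes from the library labelled KO 24 h replicate 4. Without that library and with no block, Ndst4 in KO was at 0.85 ± 0.48 (SE, adjusted p = 0.355). Its WT response was 0.17 ± 0.46 (SE).

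Hs6st2, a 6-O-sulfotransferase prominent in brain (chromosome X, 51387212 to 51681856, minus strand), rose in WT from 99.3, 89.9, 84.4 and 91.1 CPM to 109, 132, 159.7 and 122 CPM, 0.52 ± 0.14 (SE, adjusted p = 0.0112). In KO it rose from 79, 79.8, 84.3 and 58 to 113, 113, 112 and 119 CPM, 0.60 ± 0.14 (SE, adjusted p = 0.0138). Hs6st1 fell slightly in WT, from 89.3, 92.3, 94.3 and 83.8 to 73.3, 75.6, 70.1 and 73.9 CPM, -0.30 ± 0.09 (SE, adjusted p = 0.0313), and its KO value was -0.24 ± 0.10 (SE, adjusted p = 0.148). The order of the pair within the class differed between these groups: Hs6st2 made up 29.8 ± 1.10% of the class per kb in controls and 41.7 ± 5.84% at 24 h, and Hs6st1 41.5 ± 3.43% and 33.0 ± 2.04% (SD, n = 4). The endosulfatase Sulf2 rose in WT from 138, 108, 122 and 119 to 172, 139, 176 and 138 CPM, 0.36 ± 0.12 (SE, adjusted p = 0.0436). Its KO response was 0.28 ± 0.12 (SE, adjusted p = 0.206).

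Of the carriers, Sdc3 (chromosome 4, 130792537 to 130826319, plus strand) fell in WT from 816, 826, 859.6 and 845 CPM to 515, 601, 605 and 520 CPM, -0.58 ± 0.10 (SE, adjusted p = 0.000236), with no overlap. Its KO response was -0.27 ± 0.10 (SE, adjusted p = 0.114). Gpc1 fell in WT from 103, 106, 120.2 and 119.7 to 68.7, 74.1, 79.4 and 89.4 CPM, -0.53 ± 0.10 (SE, adjusted p = 0.000692), and its KO response was -0.26 ± 0.10 (SE, adjusted p = 0.151). Of the exon bases of Gpc1, 18.9% lie opposite Ankmy1, which had at most 0.472 CPM. Gpc2 fell to 2.10, 0.969, 1.10 and 1.14 CPM (-1.15 ± 0.38 SE, adjusted p = 0.0354) and Gpc3 to 2.28, 1.79, 2.65 and 3.38 CPM (-0.62 ± 0.20 SE, adjusted p = 0.0304) from the WT control values given above. Gpc3 in KO was at 7.19, 6.04, 5.52 and 6.86 CPM, -0.57 ± 0.19 (SE, adjusted p = 0.0816). Sdc2, a syndecan of dendritic spines, rose in WT: 19.4, 18.7, 16.7 and 36.5 CPM in WT controls and 33.9, 34, 43.7 and 46.3 CPM at 24 h, 0.79 ± 0.25 (SE, adjusted p = 0.0302), with control replicate 4 above 2 of the 24 h libraries. In KO Sdc2 measured 31.7, 24.2, 41.4 and 40.04 and 46.2, 43.2, 59.1 and 40.8 CPM, 0.46 ± 0.25 (SE, adjusted p = 0.33). Gpc4, a glypican that astrocytes secrete to promote synapses, rose in KO from 38.1, 33.2, 38.5 and 26.5 to 69.8, 60.6, 59.7 and 46.3 CPM, 0.79 ± 0.20 (SE, adjusted p = 0.0194). In WT it was 30.7, 29.9, 34.2 and 23.6 and 33.1, 42.2, 58.1 and 29.7 CPM, 0.46 ± 0.20 (SE, adjusted p = 0.112).

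Extl1, an exostosin-like transferase, fell in WT from 6.07, 3.60, 5.34 and 5.34 to 3.08, 2.40, 2.55 and 2.31 CPM, -0.98 ± 0.28 (SE, adjusted p = 0.0147), and in KO measured 2.97, 2.67, 2.24 and 4.52 and 1.97, 2.09, 1.55 and 1.75 CPM, -0.74 ± 0.28 (SE, adjusted p = 0.135). Hs3st3b1, a low-count 3-O-sulfotransferase, rose in WT from 0.301, 0.396, 0.232 and 0.188 to 0.744, 1.53, 0.751 and 0.834 CPM, 1.77 ± 0.56 (SE, adjusted p = 0.0283), and was 0.236, 0.444, 0.476 and 0.289 and 0.306, 0.483, 0.690 and 0.958 CPM in KO, 0.74 ± 0.55 (SE, adjusted p = 0.52). Hpse did not pass at 24 h in either genotype (0.11 ± 0.40 in WT and -0.48 ± 0.33 in KO, SE).

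Several 24 h calls were lost when 1 library was left out. In WT, Gpc2 was lost without WT control replicate 1, 2 or 3 or WT 24 h replicate 2, 3 or 4 (adjusted p 0.0557 to 0.112), Gpc3 without WT control replicate 2 or 4 or WT 24 h replicate 1 or 2 (adjusted p 0.0759 to 0.115), and Hs3st2 without WT control replicate 1, 2 or 3 or WT 24 h replicate 1, 3 or 4 (adjusted p 0.0526 to 0.107). Hs3st3b1 was lost without WT control replicate 1, 3 or 4 or WT 24 h replicate 2 (adjusted p 0.0595 to 0.114), Hs6st1 without WT control replicate 1, 2 or 3 or WT 24 h replicate 1, 2, 3 or 4 (adjusted p 0.0625 to 0.11), and Sdc2 without WT control replicate 1, 2 or 3 or WT 24 h replicate 3 or 4 (adjusted p 0.0768 to 0.101). Sulf2 was lost without WT control replicate 2, 3 or 4 or WT 24 h replicate 1, 2 or 3 (adjusted p 0.053 to 0.182), Extl1 without WT control replicate 1 (adjusted p = 0.0513), and Hs6st2 without WT 24 h replicate 3 (adjusted p = 0.072). In KO, Gpc4 was lost without KO control replicate 2 or 4 or KO 24 h replicate 1 or 2 (adjusted p 0.0516 to 0.0774) and Hs6st2 without KO control replicate 4 (adjusted p = 0.0574). The calls for Ndst3 in both genotypes and for Sdc3 and Gpc1 in WT were kept whichever single library was left out.

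**Figure D5:**
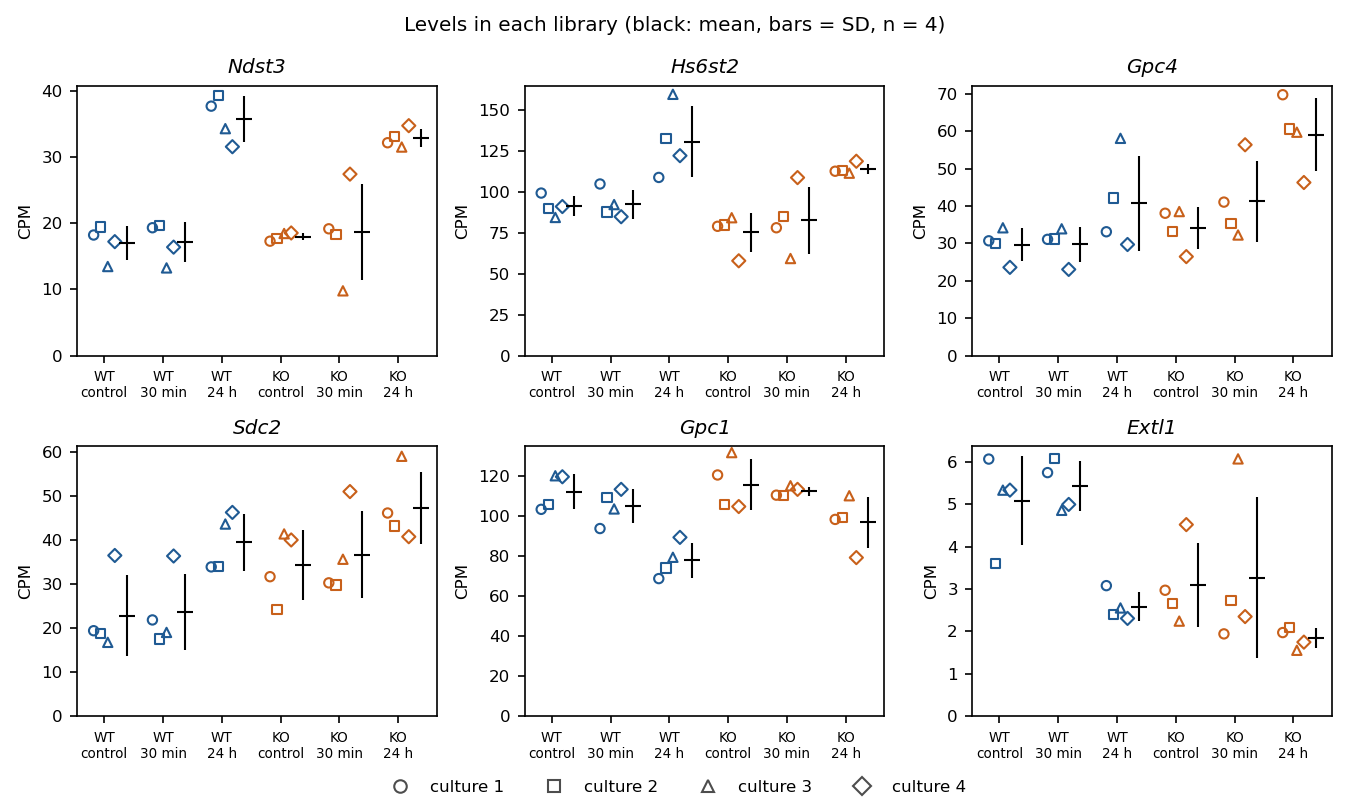
CPM in every library for Ndst3, Hs6st2, Gpc4, Sdc2, Gpc1 and Extl1 (each axis starts at 0); symbols mark the replicate number, called culture, blue is WT and orange KO, and black marks give the mean with SD, n = 4. Ndst3 lies at 31.5 to 39.3 CPM in all 24 h libraries and at most 19.7 CPM in the other libraries except KO 30 min replicate 4, at 27.4 CPM.

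With all libraries and culture as a block, Hs3st2 was the 1 member whose 24 h response was called different between genotypes. In WT it fell from 48.2, 57.4, 51.4 and 26.1 to 27.6, 34.4, 28.6 and 13.7 CPM, -0.81 ± 0.26 (SE, adjusted p = 0.0321), which is -0.81, -0.74, -0.84 and -0.93 on the log2 scale in the 4 cultures. In KO it measured 16, 18.4, 19 and 15.2 and 17.2, 17.5, 15.2 and 28.8 CPM, with culture values of 0.10, -0.07, -0.32 and 0.92. The highest of these belongs to the library labelled KO 24 h replicate 4. Ddx3y was at 66.3 CPM in that library and 0.193 CPM in its control, so this value may not compare a culture with itself. The difference of the responses (KO minus WT) was 1.01 ± 0.37 (SE, adjusted p = 0.656) without a block and 0.98 ± 0.18 (SE, adjusted p = 0.00854) with culture as a block, when it was the 1 member called beside 1.78% of all genes. Leaving out the 4 libraries named above, with the block kept, gave 0.74 ± 0.11 (SE, adjusted p = 0.000235), and then Gpc1 (0.33), Hs3st1 (0.39), Glce (-0.47) and Ext1 (-0.34) passed as well, beside 8.81% of all genes. Every one of the 4 WT cultures fell further than every KO culture. Without a block no member passed the test of the difference at 24 h (0.0358% of all genes called) or at 30 min (0.0477%). At an unadjusted p under 0.05 there were 3 members at 24 h (9.38%, beside 5.6% of all genes) and 2 at 30 min (6.25%, beside 1.79%). DESeq2 also called 0 members at an adjusted p under 0.05 (0.364% and 0.143% of all genes). Without a block, then, no member called in WT alone was shown to respond differently in KO.

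Hs3st4 measured 71.8, 62.9, 47.2 and 41.9 CPM in WT at 24 h, -0.80 ± 0.33 (SE, adjusted p = 0.0937), and passed with the culture block (-0.83 ± 0.21 SE, adjusted p = 0.00524). In KO the culture values were -0.18, -0.65, -0.75 and 1.25, the last from the library labelled KO 24 h replicate 4. The KO response was 0.20 ± 0.33 (SE) with all libraries and no block and -0.02 ± 0.22 (SE, adjusted p = 0.964) with the block. Without the 4 libraries it was -0.54 ± 0.22 (SE, adjusted p = 0.138) with no block and -0.51 ± 0.10 (SE, adjusted p = 0.00101) with the block, and then the difference between genotypes was 0.31 ± 0.13 (SE, adjusted p = 0.163).

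Some members were lower both in untreated KO neurons and in WT neurons after 24 h of BDNF. These comparisons share the WT control libraries, so their values stand side by side only. For Sdc3 the log2 values were -0.73 (KO against WT) and -0.58 (24 h against control), for Hs3st2 -1.41 and -0.81, and for Gpc2 -1.41 and -1.15. Gpc3 went opposite ways, at 1.29 and -0.62. Ndst3 and Hs6st2 had 0.07 and -0.28 between genotypes and 1.06 and 0.52 with BDNF.

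At 30 min of BDNF no member was called in either genotype by edgeR's quasi-likelihood test (0.37% of all genes called in WT and 0.125% in KO). At an unadjusted p under 0.05 there were 0 members in WT (1.81% of all genes) and 2 in KO (6.25% of the members, 4.3% of all genes), Gpc2 (-0.89 ± 0.40, SE) and Gpc5 (-0.78 ± 0.29, SE), named after their values were seen, and DESeq2 also called 0 members in both (0.435% and 0.173% of all genes). In WT the 32 log2 fold changes ran from -0.19 to 1.09, the highest being Hs3st3b1 (1.09 ± 0.56, SE). In KO the library labelled KO 30 min replicate 4 was the highest of its group in several members, among them those that rose at 24 h: 27.4 CPM of Ndst3, 109 of Hs6st2, 56.4 of Gpc4 and 51 of Sdc2.

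The neighbouring parts of the pathway are given from lists chosen with earlier results known. Counts in this and the next paragraph stand beside shares of all genes called. Between genotypes these were 21.4% in controls, 28.4% at 30 min and 13.3% at 24 h. For 24 h of BDNF they were 18.7% in WT and 5.61% in KO. Of 15 genes for the linker and sugar or sulfate donors, 1 was higher and 2 lower in KO controls. The 1 higher was Xylt2, a xylosyltransferase that starts the linker (1.38 ± 0.20 SE, adjusted p = 4.05e-05), and Papss1, which makes the sulfate donor PAPS, was lower (-0.46 ± 0.09 SE, adjusted p = 0.000582). Pxylp1, a phosphatase of the linker xylose, was the 1 that fell at 24 h in WT (-1.06 ± 0.16 SE, adjusted p = 6.1e-05) and also in KO (-0.89 ± 0.16 SE, adjusted p = 0.00167). Of 10 genes for lysosomal breakdown, 5 were higher and 0 lower in KO controls, among them Arsg (1.28), Gusb (0.79), Naglu (0.60) and Glb1 (0.53), as log2 fold changes. The list's median was 0.56, beside 0.03 over all genes. At 30 min and at 24 h 5 were higher and 1 lower each, the lower being Ids (-0.32) and Sgsh (-0.55), and Naglu was not called at either time. At 24 h of BDNF 1 of the 10, the iduronate sulfatase Ids, fell in WT (-0.29 ± 0.09 SE, adjusted p = 0.033) and none were called in KO.

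Among 12 other carrier proteins, Cd44, a hyaluronan receptor with chain-bearing forms, rose at 24 h in WT (1.17 ± 0.29 SE, adjusted p = 0.00613) and KO (1.31 ± 0.29 SE, adjusted p = 0.00868), while agrin (Agrn, -0.52 ± 0.10 SE, adjusted p = 0.000777) fell in WT. In KO controls 3 were higher, led by Spock3 (0.87 ± 0.29 SE, adjusted p = 0.0373), and 2 lower, among them Agrn (-0.52 ± 0.10 SE, adjusted p = 0.000692). Of 16 chondroitin and dermatan sulfate enzymes 15 were tested: 1 rose and 3 fell in WT at 24 h, none were called in KO, and 1 was higher and 1 lower in KO controls. The riser was Chst3, a chondroitin 6-O-sulfotransferase (2.06 ± 0.48 SE, adjusted p = 0.0036), and the lower one in KO was Csgalnact1, which starts chondroitin chains (-1.58 ± 0.27 SE, adjusted p = 0.0002).

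Most ligand and receptor genes of heparan sulfate did not pass, and the counts below stand beside 18.7% of all genes called at 24 h in WT, 5.61% in KO and 21.4% between control groups. Of 23 FGF, Slit and other ligand genes 22 were tested. In WT 4 rose and 2 fell at 24 h, and in KO 2 rose: Fgf2 (1.24 ± 0.27 (SE, adjusted p = 0.00198) in WT and 1.24 ± 0.26 (SE, adjusted p = 0.00637) in KO) and Vegfa (0.83 and 0.72). In KO controls 5 were higher and 2 lower, led by Fgf10 (-1.78 ± 0.43 SE, adjusted p = 0.00478) and Cxcl12 (-1.30 ± 0.45 SE, adjusted p = 0.042), both lower; the list also holds Fgf11 to Fgf14, which are intracellular. Of 23 receptor and partner genes 22 were tested. At 24 h 3 rose and 2 fell in WT, and 3 rose and 1 fell in KO. The FGF receptor Fgfr1 rose in both (1.28 ± 0.25 (SE, adjusted p = 0.000787) and 0.92 ± 0.25 (SE, adjusted p = 0.0304)), as did the Slit receptor Robo1 (0.75 and 0.62), and Ptprd, a phosphatase that binds heparan sulfate at synapses, fell in both (-0.51 and -0.44). In KO controls 1 was higher and 5 lower, the largest change being Lrrtm3, a synaptic partner of glypicans (-1.30 ± 0.20 SE, adjusted p = 8.7e-05).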

How the data were processed

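The deposited table holds raw read counts per gene for 24 libraries, 4 in each of 6 groups. The authors isolated RNA from cultured neurons and prepared stranded mRNA libraries, per the labels' protocols, and the submitters' processing notes name STAR 2.7.9a, DESeq2 1.38.3, limma 3.54.2, edgeR 3.40.2 and the build mm10; which program counted reads is not stated there. Symbols came from GENCODE M21 (98.8% of IDs matched; those without a symbol held 0.0662% of counts).

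Genes were filtered with filterByExpr (minimum count 10, minimum total 15), scaled by TMM and tested with edgeR 4.0.16 (R 4.3.3) in 1 quasi-likelihood model of 6 group means (18 residual degrees of freedom, biological coefficient of variation 23.5%), adjusted over 16777 genes. The test was also run on counts simulated from the levels and spreads fitted here, with results not reported here. SE is the absolute log2 fold change over the square root of F. Replicates are biological, per the series' design. DESeq2 1.42.0 was an alternative. The members and lists were chosen with earlier results of these data known. Members called in any contrast, or with a change of at least 1 on the log2 scale and no overlap, are named with each library's value, and up to 4 called genes per list; some list genes are not reported here.

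Descriptions give 1 code to the 3 libraries of a replicate number within a genotype. Deviations from group means correlated at 0.046 to 0.46 in 24 such pairs, over 0.1 in 22; both lower pairs involve KO 30 min replicate 3. The data alone do not meet a threshold of 0.1 in every pair, and the labels do not say what a code marks. The main test had no term for the code and did not use the pairing. Libraries were called cultures because they share the code. They were treated as paired only in the fits with the culture block and in the log2 values given by culture.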

Additional observations from a re-analysis of the deposited data

Results flagged for a closer look

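In 144 groups of 4 libraries tested (24 members called in any comparison, 6 groups each), 11 single libraries lay far from the other 3, a share of 7.64%; chance flags about 1 in 20 groups. Of these, 4 were in the library labelled KO 24 h replicate 4. There Hs3st4 was at 50.9 CPM (others 12.3 to 14.1), Hs3st2 at 28.8 (others 15.2 to 17.5), Gpc6 at 8.30 (others 12.7 to 13.5) and Sulf2 at 121 (others 149 to 153). A further 3 were in KO 30 min replicate 4: Ndst4 at 9.40 CPM (others 3.50 to 4.03), Hs2st1 at 78.8 (others 92.9 to 94.5) and Sdc3 at 392 (others 497 to 519). In WT, Sdc2 in control replicate 4 was at 36.5 CPM (others 16.7 to 19.4), Sulf2 in 30 min replicate 1 at 144 (others 109.7 to 113), Gpc2 in 24 h replicate 1 at 2.10 (others 0.969 to 1.14) and Hs3st3b1 in 24 h replicate 2 at 1.53 (others 0.744 to 0.834).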

How the results depend on the processing

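Counts of members called are given here as WT 24 h, KO 24 h and KO against WT in control, 30 min and 24 h, with main values of 12, 3, 11, 17 and 6. Of all genes the main test called 18.7%, 5.61%, 21.4%, 28.4% and 13.3%, and all-gene calls moved with the setting too. Of the 49 pairs of member and comparison called, 49 kept their call under DESeq2's size factors, 49 under the DESeq2 test, 39 with no filter, 39 with only the compared groups in the fit, 47 with the set of description names as a term, 46 without the 4 doubted libraries and 12 in name set 2 alone (2 or 3 libraries a group); 30 kept it whichever single library was left out. With no filter the WT 24 h count was 7 (8.47% of all genes called). DESeq2 gave 5 (KO 24 h, 8.99% of all genes) and 11 (KO against WT at 24 h, 17.5%), and the compared groups alone 11 (30 min, 17.4%). Name set 2 alone gave 0, 0, 5, 6 and 1, where 237, 19, 599, 957 and 11 genes were called in all. Without KO replicate 4 and KO 30 min replicate 3 the counts were 6 (KO 24 h, 9.43% of all genes) and 17 (KO against WT at 24 h, 31.2%).

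Pairing: the culture block gave 11 members at KO 24 h (16.9% of all genes called) and 1 for the difference at 24 h (1.78%). Adding the removal of the 4 libraries to this replicate block, a choice made after seeing the data, gave 23 (WT 24 h), 16 (KO 24 h) and 5 (difference at 24 h), with 45.9%, 25.5% and 8.81% of all genes called. Hs3st4 in KO at 24 h was 0.20 in the main setting, -0.02 with the block alone, -0.54 without the 4 libraries alone and -0.51 with both. The block changed no call at 30 min. Between genotypes libraries share only a number (correlations of -0.12 to 0.054), and the number block gave 13, 19 and 11 (25.2%, 32.4% and 17.4% of all genes called). The cause of these shifts was not tested. Leaving out single libraries gave 6 to 9 (WT 24 h), 1 to 4 (KO 24 h), 11 to 13 (control), 12 to 17 (30 min), 5 to 12 (24 h) and 0 for the other comparisons. Over all genes 2311 to 2839 (WT 24 h), 482 to 985 (KO 24 h), 2667 to 3191 (control), 3620 to 4802 (30 min) and 1216 to 3138 (24 h) were then called. Low counts limit Hs3st3b1, Hpse in WT, Gpc2 and Sdc4.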
